A study of Mus musculus with 2 samples.

Results

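Cycling cells outside the granulocyte lineage were picked out of the single-cell RNA profiles of 2 mouse spleen libraries, and 113 of the 13258 cells met the rule. A cell was kept when it held at least 3 UMIs (single captured RNA molecules) of Mki67 and Top2a together, fewer than 10 UMIs of the granule genes Elane, Mpo and Prtn3, and less than 1% of its UMIs from S100a8 and S100a9. The high B12 library gave 41 such cells among 6748, and the low B12 library gave 72 among 6510. A further 133 cells of the high B12 library and 65 of the low B12 library reached the Mki67 and Top2a limit but lay inside the granulocyte limits, and they were set aside.

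The study profiled spleen cells that carry CD45.2 and CD11b, sorted with DAPI from viably frozen suspensions. The samples are 1 library labelled high B12 and 1 labelled low B12, with a 3′ single-cell kit for both. The series title places them in Tet2-deficient blood formation, while the labels name the B12 treatment only and give neither genotype, dose, time, age nor the number of mice. With 1 library per label there is no replicate and no test between labels, so library and treatment cannot be told apart, and every interval below is at 95% and covers counting error only.

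A dividing cell copies its DNA in S phase and splits its chromosomes in M phase, and each step has its own set of genes. Mki67 encodes Ki-67, a coat of mitotic chromosomes. Top2a encodes topoisomerase II alpha, which untangles DNA, Birc5 encodes survivin of the chromosomal passenger complex, and Stmn1 encodes stathmin, a microtubule destabilizer. Such genes are held silent in resting cells by the DREAM repressor complex, which reads the CHR element, and are driven later by B-Myb and by NF-Y, which reads CCAAT boxes. In the spleen, dividing cells outside the granulocyte lineage include precursors of dendritic cells, young monocytes, NK cells, B cells and responding T cells.

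The promoter windows of 3 of the marker genes are shown: Mki67 and Top2a because the members were chosen by their RNA, and Birc5 because it serves below as a check that the rule did not use. Each window is 300 bases of RefSeq sequence on build GRCm38.p6 and contains the gene's start. Capitals mark the CHR core TTTGAA and the CCAAT box, searched on both strands, with no overlap between the marked letters. Mki67 lies at chr7:135716330-135716629 on the minus strand, Top2a at chr11:99024140-99024439 on the minus strand, and Birc5 at chr11:117848987-117849286 on the plus strand.
Mki67: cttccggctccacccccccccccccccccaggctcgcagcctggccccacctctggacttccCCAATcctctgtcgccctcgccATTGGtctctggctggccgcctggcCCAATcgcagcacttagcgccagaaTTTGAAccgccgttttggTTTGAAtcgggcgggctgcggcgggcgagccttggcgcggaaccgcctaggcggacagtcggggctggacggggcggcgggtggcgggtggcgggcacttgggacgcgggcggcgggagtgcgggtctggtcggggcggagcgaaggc
Top2a: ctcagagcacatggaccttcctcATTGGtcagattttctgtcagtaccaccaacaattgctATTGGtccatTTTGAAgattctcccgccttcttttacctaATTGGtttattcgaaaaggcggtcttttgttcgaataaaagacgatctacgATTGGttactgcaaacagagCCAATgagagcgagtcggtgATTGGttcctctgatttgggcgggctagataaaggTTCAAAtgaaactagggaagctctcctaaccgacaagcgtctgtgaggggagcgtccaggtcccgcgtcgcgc
Birc5: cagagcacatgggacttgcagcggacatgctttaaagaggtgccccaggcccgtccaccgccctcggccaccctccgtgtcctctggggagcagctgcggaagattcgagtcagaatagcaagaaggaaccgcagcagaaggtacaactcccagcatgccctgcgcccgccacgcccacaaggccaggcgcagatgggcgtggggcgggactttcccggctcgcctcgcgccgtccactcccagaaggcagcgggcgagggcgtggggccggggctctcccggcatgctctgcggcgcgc
The Mki67 window held 2 CHR cores and 3 CCAAT boxes, the Top2a window 2 and 6, and the Birc5 window neither. Over the 32851 windows of the same length in the table, 17.9% held the CHR core, 37.4% a CCAAT box and 6.95% both. These matches describe letters and not binding.

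The label of the cells was checked against genes that the rule did not use. Of the 4 cycling markers, Stmn1 was detected in 31 of 41 members of the high B12 library and 49 of 72 of the low B12 library, and Birc5 in 26 high B12 and 34 low B12 members. Among other cells outside the granulocyte limits, Stmn1 was seen in 8.61% of 3381 cells of the high B12 library and 8.34% of 5145 of the low B12 library, and Birc5 in 1.01% in high B12 and 0.700% in low B12. At the level of summed UMIs, Birc5 stood at 431 CPM (UMIs of the gene scaled to a common total of 1000000) in high B12 members, against 4.64 CPM in the other cells, and at 201 CPM in low B12 members, against 1.95 CPM. Empty droplets held 32.3 CPM of Birc5 as free RNA in high B12 and 22.5 CPM in low B12. The markers of the rule themselves are a description, with Top2a in 39 high B12 and 62 low B12 members and Mki67 in 32 high B12 and 55 low B12 members.

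A list of 95 further S and G2/M genes gave a sharper picture. Members had a median of 44 of these genes in the high B12 library (range 7 to 73) and 42.5 in the low B12 library (3 to 78). Each member was then set against cells without any Mki67 or Top2a UMI whose depth lay within 20% of its own. These numbered 10 to 821 per member in the high B12 library and 3 to 1345 in the low B12 library. In the high B12 library 29 of 41 members stood above the 99th percentile of those cells, and in the low B12 library 47 of 72 did. The remaining 12 high B12 and 25 low B12 cells had a median of 3 Mki67 and Top2a UMIs in either library. Their other cell cycle genes were not set apart at that percentile from the cells of like depth. A high B12 monocyte-like cell among them still held 14 Mki67 and Top2a UMIs, 8 Birc5 UMIs and 34 of the 95 genes. Its cells of like depth had a median of 13 genes and a 99th percentile of 40.2. So this check bore out the label for most members, and did not bear it out for these remaining cells.

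**Figure D1:**
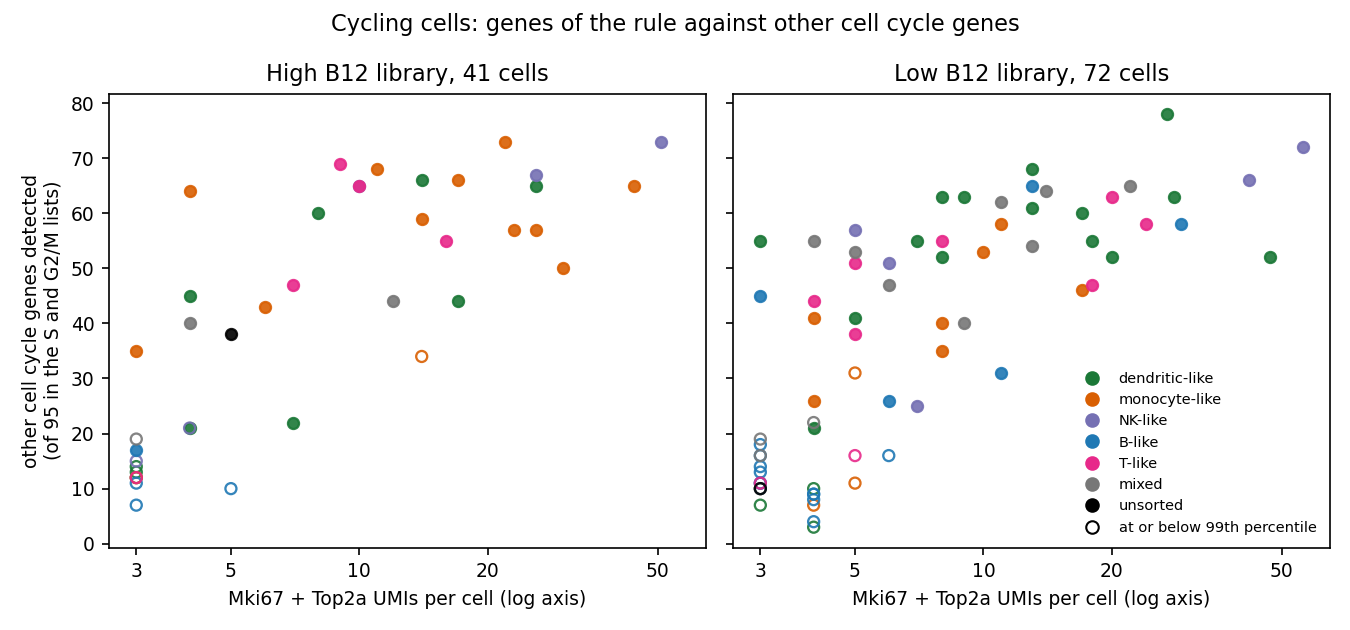
Mki67 and Top2a UMIs per member (horizontal, log axis) against the number of other cell cycle genes detected of 95 (vertical), with the high B12 library on the left and the low B12 library on the right. Colours give the lineage, and open circles are the 12 high B12 and 25 low B12 members at or below the 99th percentile of cells of like depth, which sit mostly at 3 to 5 UMIs.

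The limits of the rule were sharp for S100a8 and S100a9, less so for Elane, Mpo and Prtn3, and gradual for Mki67 and Top2a. Exactly 3 UMIs were held by 11 high B12 members and 15 low B12 members, while 44 high B12 and 64 low B12 cells just outside held 2. At least 5 UMIs were held by 25 high B12 and 44 low B12 members, and the highest cell had 51 in the high B12 library and 56 in the low B12 library. S100a8 and S100a9 took at most 0.203% of the UMIs of a high B12 member and at most 0.669% of a low B12 member, and the lowest shares outside were 2.11% in high B12 and 2.07% in low B12. Elane, Mpo and Prtn3 reached 7 UMIs in high B12 and 9 in low B12 members, and began at 11 in high B12 and 12 in low B12 among the cells set aside for these genes alone. Members were deep, with a median of 11304 UMIs in the high B12 library and 13083 in the low B12 library, against 5950 in high B12 and 5967 in low B12 among the other cells outside the granulocyte limits. The 41 members held 500797 UMIs in all and the 72 held 987214. Shares are also given below for cells thinned to 3000 UMIs.

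The interval of the difference in the share of cycling cells between the libraries spanned 0. Of the cells outside the granulocyte limits, 1.20% met the rule in the high B12 library (41 of 3422, exact binomial interval 0.861 to 1.62%) and 1.38% in the low B12 library (72 of 5217, 1.08 to 1.73%). The difference was −0.182 percentage points, high B12 minus low B12, with an interval of −0.655 to 0.327. Thinned to 3000 UMIs and counted at 1 UMI or more, the shares were 4.29% in high B12 and 4.42% in low B12. Cells under 3000 UMIs were left out of the thinned values, 717 of the high B12 library and 622 of the low B12 library. Among the other cells, 2.69% of the high B12 library and 2.33% of the low B12 library held 1 or 2 Mki67 UMIs.

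Lineages were read from panels of 9 to 11 markers for dendritic, NK, B and T cells and 12 for monocytes. These panels contain the marker genes of the rule, and the names rest on RNA alone. A cell took the lineage with the largest share of its panel detected, needed at least 2 markers, and was called mixed when another lineage came close. Dendritic-like cells numbered 10 of the high B12 members and 18 of the low B12 members, monocyte-like cells 13 in high B12 and 11 in low B12, and NK-like cells 5 in each. B-like cells numbered 4 in high B12 and 17 in low B12, T-like cells 5 in high B12 and 9 in low B12, and mixed cells 3 in high B12 and 11 in low B12, and 1 cell of each library stayed unsorted. Scrublet called 1 high B12 member and 6 low B12 members doublets. The high B12 one was a mixed cell, while the low B12 ones were 3 B-like, 2 mixed and the unsorted cell.

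As counted, monocyte-like cells took a larger part of the cycling cells in the high B12 library. The size of the difference depended on the limit of the rule and on thinning. Monocyte-like cells were 31.7% of the high B12 members (interval 18.1 to 48.1%) and 15.3% of the low B12 members (7.88 to 25.7%), a difference of 16.4 points (0.671 to 33.0). The difference was 7.65 points with a limit of 2 Mki67 and Top2a UMIs and 24.1 points with a limit of 5. Thinned to 3000 UMIs and counted at 1 UMI or more, the libraries lay closer. Monocyte-like cells were then 20 of 116 cells in high B12 and 31 of 203 in low B12. B-like cells were 9.76% in high B12 and 23.6% in low B12, a difference of −13.9 points whose interval spanned 0 (−26.3 to 1.40). It was −23.97 points with a limit of 2 UMIs and −7.19 points among members above the 99th percentile for other cell cycle genes. Dendritic-like cells made up 24.4% in high B12 and 25% in low B12, and T-like cells 12.2% in high B12 and 12.5% in low B12. The other cells outside the granulocyte limits were themselves 19.2% B-like in the high B12 library and 34.1% in the low B12 library, so the B-like difference of −14.8 points among them was of like size. Monocyte-like cells were 26.4% in high B12 and 24.4% in low B12 of those other cells.

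T-like cells were the most often cycling by this rule, at 16.7% of 30 cells in the high B12 library (5 cells, interval 5.64 to 34.7%) and 17.3% of 52 in the low B12 library (9 cells, 8.23 to 30.3%). All other cells outside the granulocyte limits, mixed and unsorted ones included, stood at 1.06% in high B12 and 1.22% in low B12. That put T-like cells 15.6 points higher in the high B12 library (6.27 to 32.5) and 16.1 points higher in the low B12 library (8.16 to 28.5). Dendritic-like cells, which had a median of 9646.5 UMIs in high B12 and 9108 in low B12, came next as counted, with 2.33% of 430 in high B12 and 3.39% of 531 in low B12. Monocyte-like cells stood at 1.44% of 905 in high B12 and 0.869% of 1266 in low B12, NK-like cells at 0.581% of 860 in high B12 and 0.521% of 960 in low B12, and B-like cells at 0.612% of 654 in high B12 and 0.960% of 1770 in low B12. For each lineage the interval of the difference between libraries spanned 0. After thinning to equal depth and sorting anew, the shares were 21.7% in high B12 and 23.4% in low B12 for T-like cells, against 2.44 to 6.94% for the others in the high B12 library and 2.74 to 5.60% in the low B12 library. Dendritic-like cells then stood at 6.94% in high B12 and 5.54% in low B12, and B-like cells at 4.97% in high B12 and 5.60% in low B12, with overlapping intervals. Other T-like cells were few, 25 in high B12 and 43 in low B12. The sort was on CD11b, and Itgam, the CD11b gene, was seen in 2 of 5 high B12 and 0 of 9 low B12 cycling T-like cells.

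**Figure D2:**
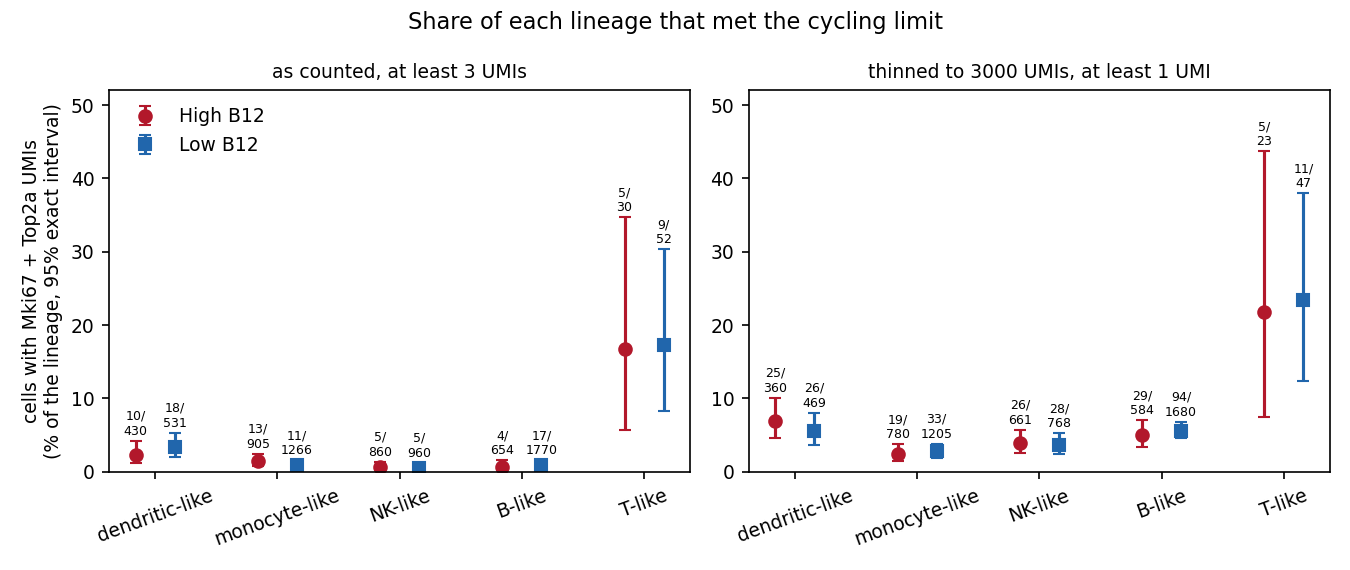
Share of each lineage with Mki67 and Top2a UMIs at the limit, as counted (left) and after thinning to 3000 UMIs with at least 1 UMI (right), for the high B12 library (circles) and the low B12 library (squares). Bars are 95% exact binomial intervals and the numbers written over them are cycling cells over all cells; T-like cells stand above every other lineage in both panels.

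How far the other cell cycle genes bore out the label also varied by lineage. Above the 99th percentile of cells of like depth stood 7 of 10 high B12 and 15 of 18 low B12 dendritic-like members, 11 of 13 high B12 and 7 of 11 low B12 monocyte-like members, 3 of 5 high B12 and 5 of 5 low B12 NK-like members and 4 of 5 high B12 and 7 of 9 low B12 T-like members. B-like members were the exception, with 1 of 4 high B12 and 5 of 17 low B12. Neither Stmn1 nor Birc5 was seen in 3 of 4 high B12 cells and 11 of 17 low B12 cells. In the low B12 library 11 of the 17 B-like members had Top2a without Mki67, and the median of other cell cycle genes over the 17 was 14, against 9 in other B-like cells. Their median depth was 8323 UMIs, against 5796 in those other cells. The check therefore did not bear out the label for most B-like members, and this limits every value given for them below. Counting only members above the percentile, T-like cells still led, with 13.3% in the high B12 library and 13.5% in the low B12 library.

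T-like members carried CD8 RNA mostly in the high B12 library and Cd4 RNA in the low B12 library. In the high B12 library 4 of 5 carried Cd8a or Cd8b1 RNA, for the CD8 co-receptor of cytotoxic T cells (exact interval 28.4 to 99.5%), and 0 of 5 had a Cd4 UMI (exact upper limit 52.2% of cells with a UMI, which does not limit the cells expressing it). The low B12 library had 1 of 9 with CD8 RNA (0.281 to 48.2%) and 6 of 9 with Cd4, the co-receptor of helper T cells. The Cd8b1 UMIs of the 5 high B12 cells were 26, 14, 14, 6 and 0, and the 9 low B12 cells held 2 in 1 cell and none in the others. Ccl5, a chemokine of cytotoxic cells, had 190, 168, 136, 114 and 82 UMIs in the high B12 cells, and was seen in 2 of 9 low B12 cells with at most 29. Gzma, for granzyme A, was found in 4 of 5 high B12 cells with up to 176 UMIs, against none in the low B12 cells. Foxp3, the factor of regulatory T cells, was in 0 of 5 high B12 and 4 of 9 low B12. Ikzf2, for Helios, which many regulatory T cells carry, was in 0 of 5 high B12 and 8 of 9 low B12, with a median of 16 and up to 68 UMIs in the low B12 cells. Ctla4, a co-inhibitory receptor, was in 1 of 5 high B12 and 9 of 9 low B12. Ccl5, Gzma, Foxp3, Ikzf2 and Ctla4 were looked up after values had been seen.

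The other T-like cells held both kinds in either library. CD8 RNA was found in 9 of 25 other T-like cells of the high B12 library and 10 of 43 of the low B12 library, Cd4 in 7 high B12 and 17 low B12 cells, and Foxp3 in 6 high B12 and 16 low B12 cells. Ikzf2 stood at 1289 CPM in high B12 and 1941 CPM in low B12 in them and Ccl5 at 6399.7 CPM in high B12 and 6099 CPM in low B12. The G2 and M list had a median of 19023 CPM per cell in the high B12 T-like members (3139 to 30101) and 4082 CPM in the low B12 ones (813 to 18990.1), with overlapping ranges.

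Dendritic-like members carried dendritic genes. They held 3 to 9 of 11 dendritic markers in the high B12 library and 5 to 9 in the low B12 library. H2-Aa, an MHC class II chain, was present in 10 of 10 high B12 and 18 of 18 low B12 cells, and Flt3, the receptor that drives dendritic cell growth, in 8 high B12 and 17 low B12 cells. Zbtb46, a conventional dendritic cell factor, was in 6 of 10 high B12 and 13 of 18 low B12. Clec9a, a receptor of type 1 dendritic cells, was in 5 of 10 high B12 and 7 of 18 low B12, and Cd209a, a marker of type 2 cells, in 3 of 10 high B12 and 3 of 18 low B12. Ncr1, Cd79a and Cd3e were at 0 UMIs in every one of them. Csf1r, the monocyte gene of the rule, was in 2 of 10 high B12 and 4 of 18 low B12, with at most 3 UMIs. At least 2 of the 12 monocyte markers were seen in 5 of 10 high B12 and 14 of 18 low B12 dendritic-like members.

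D-type cyclins start the cycle by switching on CDK4 and CDK6. Among them Ccnd1 and Ccnd2 differed in detection between lineages, while Ccnd3 was seen in every lineage. Ccnd1 was in 8 of 10 dendritic-like members of the high B12 library and 15 of 18 of the low B12 library, at 237 CPM in high B12 and 693 CPM in low B12 of summed UMIs. It was at 0 UMIs in all monocyte-like, NK-like and T-like members of both libraries, and in 0 of 4 high B12 and 1 of 17 low B12 B-like members. Free RNA held 21.3 CPM of Ccnd1 among high B12 empty droplets and 28.4 CPM among low B12 ones. Other dendritic-like cells had Ccnd1 at 295 CPM in high B12 and 388 CPM in low B12, so cells of the lineage that did not meet the rule held it too. Ccnd2 was found in 3 of 5 high B12 and 3 of 5 low B12 NK-like members, 3 of 5 high B12 and 6 of 9 low B12 T-like members and 1 of 10 high B12 and 1 of 18 low B12 dendritic-like members, and in no monocyte-like member. B-like members held Ccnd2 in 2 of 4 high B12 and 6 of 17 low B12. Ccnd3 was the D-type cyclin that monocyte-like members held, in 12 of 13 high B12 and 9 of 11 low B12 at 226 CPM in high B12 and 308 CPM in low B12. Dendritic-like members held Ccnd3 in 5 of 10 high B12 and 14 of 18 low B12, and NK-like members in 5 of 5 and 4 of 5. For B-like members it was 2 of 4 high B12 and 16 of 17 low B12, and for T-like members 4 of 5 and 6 of 9. Ccnd3 was lower in cycling than in other cells among dendritic-like cells (118 against 220 CPM in the high B12 library, 148 against 327 CPM in the low B12 library) and NK-like cells (213 against 471 CPM in the high B12 library, 208 against 663 CPM in the low B12 library).

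**Figure D3:**
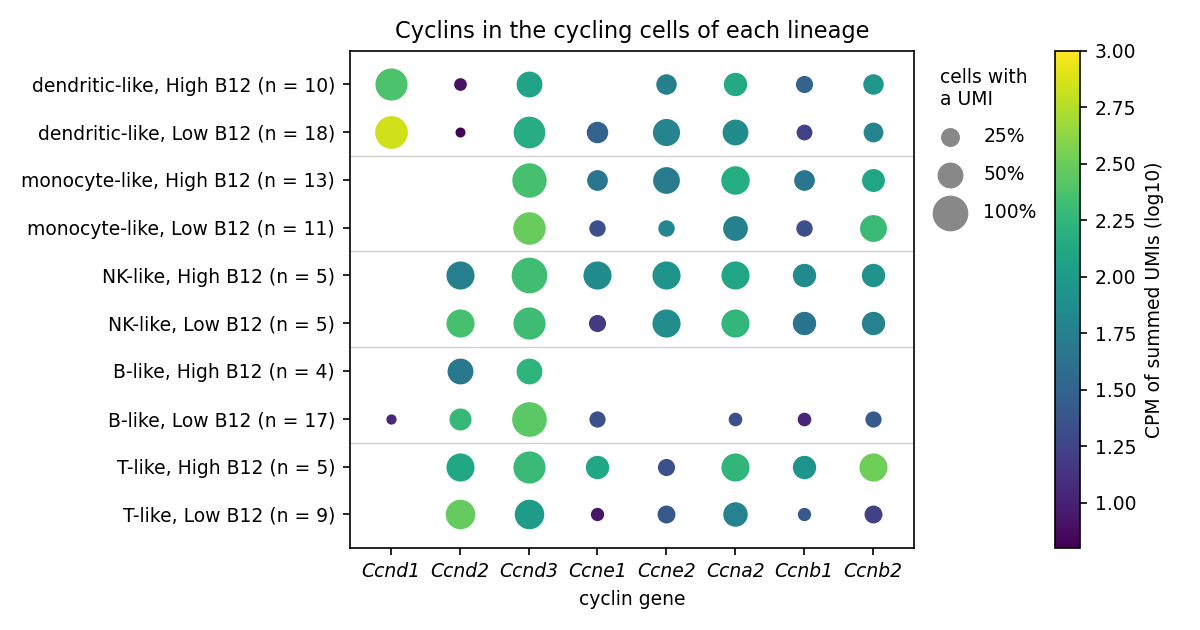
Cyclin genes (columns) in the cycling cells of each lineage and library (rows, high B12 above low B12 within a lineage). Dot area is the share of cells with a UMI and colour the CPM of summed UMIs on a log10 scale; Ccnd1 stands in the dendritic-like rows, and Ccnd2 in the NK-like, T-like and B-like rows.

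Monocyte-like members carried Ly6c2, which marks classical monocytes. Ly6c2 was in 12 of 13 high B12 and 9 of 11 low B12 cells, at 1470 CPM in high B12 and 1657 CPM in low B12, against 767 CPM in high B12 and 538 CPM in low B12 in the other monocyte-like cells. Cx3cr1, higher in patrolling monocytes, stood at 86.8 CPM in high B12 members, against 391 CPM in the other cells, and at 194 CPM in low B12 members, against 419 CPM. Csf1r, the growth factor receptor of the lineage, was in 13 of 13 high B12 and 9 of 11 low B12. The granulocyte panel summed to 660 CPM in the high B12 members and 2238 CPM in the low B12 members, whose cells had a median of only 428 CPM. The low B12 cells with most S100a8 and S100a9 held 0.640, 0.589 and 0.468% of their UMIs from them, and the next 0.0413%. Those leading cells had 4, 8 and 5 Mki67 UMIs and 0 of Top2a. The highest share of a high B12 cell was 0.0907%. The part of granulocyte RNA in the values below was not tested.

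Replication histones differed between the monocyte-like members of the libraries. These genes make the histones that wrap newly copied DNA, and their RNA is high in S phase. Their summed level per cell was 453 at the lowest, 15336 at the median and 31764 CPM at the highest in 13 high B12 cells, and 321 at the lowest, 1135 at the median and 20175 CPM at the highest in 11 low B12 cells. The ranges overlapped. A level of 10000 CPM or more, a limit chosen after the values were seen, was reached by 9 of 13 high B12 cells (38.6 to 90.9%) and 1 of 11 low B12 cells (0.230 to 41.3%). Restricted to members above the percentile for the other cell cycle genes, it was reached by 9 of 11 high B12 and 1 of 7 low B12. Dendritic-like members reached it in 2 of 10 high B12 and 2 of 18 low B12, NK-like members in 2 of 5 high B12 and 1 of 5 low B12, and T-like members in 2 of 5 high B12 and 3 of 9 low B12. The histone level did not follow the S phase list in every cell. Among high B12 monocyte-like cells, 1 held 23295 CPM of histones with 1461 CPM of the S list. Another held 1232 CPM with 8412 CPM, and a further cell 22955 CPM with 5639 CPM. How fully the 3′ kit captured histone RNA was not measured.

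**Figure D4:**
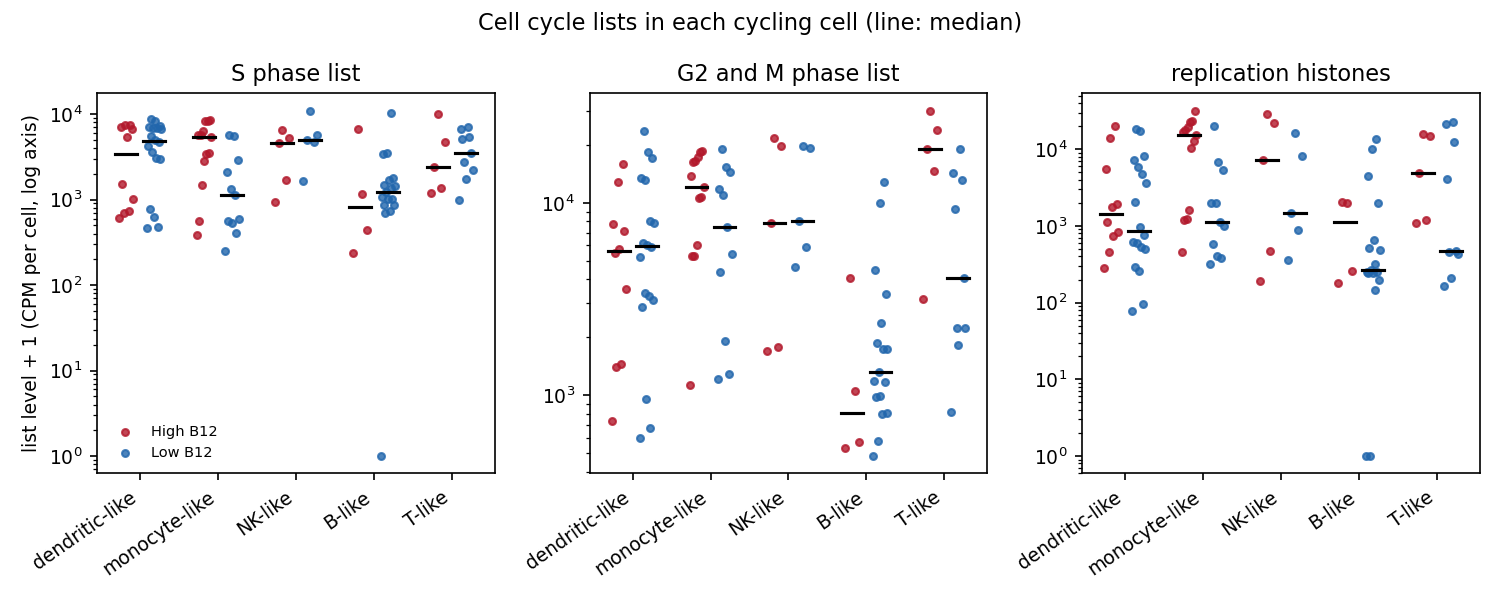
Level of the S phase list, the G2 and M phase list and the replication histones in every cycling cell (CPM plus 1, log axis) by lineage, with the high B12 library left of the low B12 library and a line at the median. In monocyte-like cells the histone medians are 15336 CPM in high B12 and 1135 CPM in low B12, while the points of both libraries overlap.

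Gene by gene, the summed monocyte-like members of the high B12 library carried more RNA of DNA synthesis and division. The sums include 2 high B12 and 4 low B12 cells not above the percentile for other cell cycle genes. Genes were not compared without those cells. The sets also differed in the genes of the rule. Mki67 and Top2a together had a median of 14 UMIs in the 13 high B12 cells and 5 in the 11 low B12 cells. Both genes were seen in 12 of 13 high B12 and 3 of 11 low B12 cells. Mki67 without Top2a was seen in 5 low B12 cells. The calls below were not separated from this difference. A gene with at least 50 UMIs over both sets of cells was called higher or lower when the CPM of the high B12 members over that of the low B12 members differed by at least 1.5-fold and its interval lay beyond a difference of 25%, taken as the larger over the smaller. Of 1021 such genes 52 (5.09%) were called higher and 36 (3.53%) lower, and 46.1% had a ratio above 1. Of 67 replication histones 12 could be measured, all 12 were higher and 11 were called, at a median log2 ratio of 1.95, beside −0.03 over all genes. Hist1h2ap stood at 3258 CPM in the high B12 and 588 CPM in the low B12 members, a ratio of 5.54 (4.39 to 7.07). Hist1h1b, a linker histone, stood at 1423 CPM in high B12 and 359 CPM in low B12 (ratio 3.97, 2.92 to 5.49), but 1 cell held 84.0% of its low B12 UMIs. For Hist1h2ap the highest low B12 cell held 59.8%. The S phase list had 6 of 7 measured genes higher and 4 called. Among them Rrm2, a subunit of the enzyme that makes DNA building blocks, had 243 CPM in high B12 and 64.6 CPM in low B12 (ratio 3.76, 1.81 to 8.80), with 66.7% of the low B12 UMIs in 1 cell, and Pcna, the sliding clamp of DNA polymerase, 509 CPM in high B12 and 251 CPM in low B12 (ratio 2.03, 1.36 to 3.09). The G2 and M list had 12 of 14 higher and 5 called, at a median of 0.89. Birc5 stood at 474 CPM in high B12 and 158 CPM in low B12 (ratio 3.01, 1.86 to 5.06), and Nusap1, a spindle protein, at 330 CPM in high B12 and 71.7 CPM in low B12 (ratio 4.60, 2.33 to 10.1).

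Outside the cell cycle, the lists gave mixed or small differences. Of 10 measured heat shock genes 2 were called lower, the Hsp70 genes Hspa1a at 457 CPM in high B12 and 1105 CPM in low B12 (ratio 0.414, 0.311 to 0.546) and Hspa1b at 503 CPM in high B12 and 1019 CPM in low B12 (ratio 0.494, 0.374 to 0.650). Those near-identical copies can share reads. Oxidative phosphorylation and ribosomal protein lists had medians of −0.07 and 0.03, the second turning negative under 3 of the other settings. Of 5 MHC class II genes 4 were called higher, but 1 high B12 cell carried 100% of the H2-Aa UMIs of its group, and for Cd74 the highest cell carried 90.8%. Among genes named by size, Tubb5, a beta tubulin, had 1001 CPM in high B12 and 409 CPM in low B12 (ratio 2.45, 1.81 to 3.36), Dek, a chromatin protein, 937 CPM in high B12 and 531 CPM in low B12 (ratio 1.77, 1.33 to 2.36), and H3f3b, for the replacement histone H3.3, 3159 CPM in high B12 and 1499 CPM in low B12 (ratio 2.11, 1.79 to 2.48). Jpt1, Calm2 and Ubb were also on this list, with ratios of 2.15, 1.80 and 1.57. Lower in the high B12 members were the lysosomal proteases Ctss (579 CPM in high B12 and 1105 CPM in low B12, ratio 0.524, 0.403 to 0.678) and Ctsc (278 CPM in high B12 and 516 CPM in low B12, ratio 0.538, 0.365 to 0.786), and Anxa5, a phospholipid-binding protein (255 CPM in high B12 and 516 CPM in low B12, ratio 0.493, 0.331 to 0.727). Zcchc7, Creg1, Pomp, Arpc3 and Mrpl33 completed that side, with ratios between 0.422 and 0.609.

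Dendritic-like members did not show that pattern. Of 1304 measured genes 12 (0.92%) were called higher and 59 (4.52%) lower in the high B12 cells, and 45.9% had a ratio above 1. The S phase list had 1 of 13 measured genes higher and 12 lower with none called, at a median of −0.46, beside −0.05 over all genes. With a limit of 5 Mki67 and Top2a UMIs that median was −0.0051. The G2 and M list was split, 9 higher and 9 lower, with 2 called lower. These were Cenpf, a kinetochore protein, at 63.1 CPM in high B12 and 178 CPM in low B12 (ratio 0.354, 0.145 to 0.750), and Nusap1 at 86.8 CPM in high B12 and 240 CPM in low B12 (ratio 0.361, 0.172 to 0.687). All 6 measured replication histones were higher and 2 were called, but the highest high B12 cell held 78% of the Hist1h2ap UMIs, and for Hist1h2ae the highest held 85.8%. Ccnd1 was the called cyclin, at 237 CPM in high B12 against 693 CPM in low B12 (ratio 0.341, 0.225 to 0.503). Its UMIs per cell ran from 0 over a median of 2 to 8 in the high B12 cells and from 0 over 7.5 to 30 in the low B12 cells, which overlap.

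Chaperones were mostly lower in the high B12 dendritic-like members. Of 12 measured heat shock genes 9 were lower and 3 called, at a median of −0.57. The median was −0.24 with every cell weighted alike and −0.87 with a limit of 5 Mki67 and Top2a UMIs. Hsp90aa1, the inducible Hsp90, had 726 CPM in high B12 and 1169.9 CPM in low B12 (ratio 0.620, 0.487 to 0.783), and Dnaja1, an Hsp70 partner, 260 CPM in high B12 and 521 CPM in low B12 (ratio 0.499, 0.332 to 0.731). For Hsph1, 1 cell held 93.8% of the high B12 UMIs. Ribosomal protein genes had 76 of 80 slightly higher with none called, at a median of 0.22. Type I interferon genes were mostly too low to measure, with 2 of 36. MHC class II genes stood at like levels, 4 of 10 higher and none called, with Cd74, the invariant chain, at 11160.1 CPM in high B12 and 10910.0 CPM in low B12. By size the rule named S100a9 (268 CPM in high B12 and 54.9 CPM in low B12, ratio 4.89, 2.62 to 9.48), Cdk8, a kinase of the Mediator complex (229 CPM in high B12 and 89.2 CPM in low B12, ratio 2.56, 1.46 to 4.53), Arpp19, a mitotic phosphatase inhibitor (ratio 2.08), AY036118 (ratio 1.93) and Mir142hg (ratio 1.72). S100a9 also differed in free RNA, at 44206 CPM among high B12 empty droplets and 16492 CPM among low B12 ones, and its part here was not tested. Lower by size were Plxnc1, a semaphorin receptor (150 CPM in high B12 and 391 CPM in low B12, ratio 0.383, 0.222 to 0.626), Jak2, the cytokine receptor kinase (126 CPM in high B12 and 316 CPM in low B12, ratio 0.400, 0.219 to 0.684), and Dock2 and Elmo1, which form a Rac activator (ratios 0.482 for Dock2 and 0.486 for Elmo1). Kansl1, Uvrag, Pip4k2a and Lcp1 had ratios between 0.390 and 0.585.

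**Figure D5:**
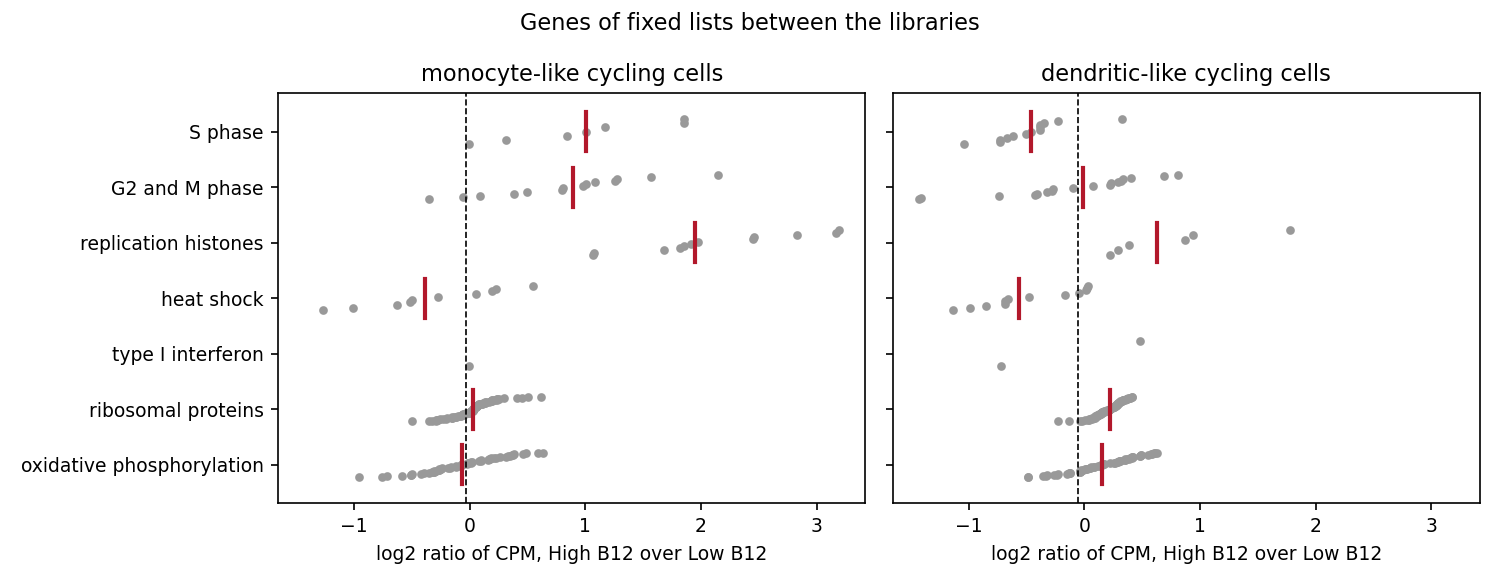
Log2 of the high B12 CPM over the low B12 CPM for each measured gene of fixed lists (grey points) in monocyte-like (left) and dendritic-like (right) cycling cells, with list medians as red bars where at least 5 genes were measured and the median of all genes as a dashed line. Replication histones, S and G2/M genes lie mostly right of the line in monocyte-like cells, while 12 of 13 S phase genes have ratios under 1 in dendritic-like cells.

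Set beside the other cells of their own lineage, cycling dendritic-like cells had lower values for most MHC class II and type I interferon genes. In the high B12 library 3.94% of 7005 genes were called higher and 2.7% lower in the cycling cells, and in the low B12 library 7.12% of 7874 were called higher and 4.17% lower. Ratios above 1 were held by 51.8% of the genes in high B12 and 52% in low B12. Of 11 MHC class II genes 10 were lower with 4 called in the high B12 library, and 9 lower with 1 called in the low B12 library. H2-Aa, which is also a marker of the lineage panel, stood at 4227 CPM in cycling cells, against 7349.6 CPM in the others, in the high B12 library (ratio 0.575, 0.527 to 0.627), and at 4573 CPM in cycling cells, against 6694 CPM in the others, in the low B12 library (ratio 0.683, 0.646 to 0.722), where it was not called. The 1 gene called there was H2-DMa, a chaperone of peptide loading, at a ratio of 0.666 (0.550 to 0.800). Of 28 measured type I interferon genes 24 were lower with 5 called in the high B12 library and 26 lower with 10 called in the low B12 library. Isg15, an interferon-induced ubiquitin-like protein, had 7.89 CPM in cycling against 79.7 CPM in other cells of the high B12 library, and 10.3 against 72.7 CPM in the low B12 library. The cycling dendritic-like cells held 126791 UMIs of all genes in high B12 and 291475 in low B12. Their Isg15 values therefore rest on very few UMIs. Ifi27l2a, another interferon-induced gene, had 229 CPM in cycling against 676 CPM in other cells in high B12 (ratio 0.338, 0.226 to 0.487) and 165 against 427 CPM in low B12 (ratio 0.385, 0.283 to 0.513). Oxidative phosphorylation genes went the other way, with 64 of 76 higher and 8 called in high B12 (median 0.41, beside 0.04 over all genes) and 66 higher and 9 called in low B12 (median 0.40, beside 0.03). Cox7a2, a subunit of cytochrome c oxidase, had 592 CPM in cycling against 305 CPM in other cells in high B12 (ratio 1.94, 1.52 to 2.45) and 446 against 279 CPM in low B12 (ratio 1.60, 1.33 to 1.92).

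The genes called the same way in both libraries by the naming rule are given with their ratio in each library. In dendritic-like cells these were, on the higher side, the histone chaperones Anp32b (ratios 2.37 in high B12 and 3.15 in low B12) and Set (1.95 in high B12 and 2.51 in low B12) and the glycolytic enzyme Gapdh (1.61 in high B12 and 1.99 in low B12). On the lower side stood Samhd1, which breaks down DNA building blocks (0.430 in high B12 and 0.492 in low B12), the Src-family kinase gene Lyn (0.585 in high B12 and 0.587 in low B12), the adaptor gene Tyrobp (0.645 in high B12 and 0.518 in low B12), the class I gene H2-D1 (0.537 in high B12 and 0.638 in low B12) and Ptprc, for CD45 (0.460 in high B12 and 0.650 in low B12). Ier5, Fxyd5, Adgre5, Jund and Etv6 were lower too, with ratios from 0.474 to 0.624. Both libraries called 161 genes higher and 79 lower of 6939 measured in each. Among these the high B12 library called 272 higher and 189 lower in all, and the low B12 library 484 higher and 307 lower.

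Monocyte-like cells were set beside the other cells of their lineage in the same way. Of the measured genes 6.24% were called higher and 3.03% lower in the high B12 library and 4.02% higher and 1.9% lower in the low B12 library, and ratios above 1 were held by 54.1% in high B12 and 55.9% in low B12. Behind Mki67 came the chromatin genes Hmgn2 (ratios 10.2 in high B12 and 12.8 in low B12), Hmgb2 (6.76 in high B12 and 6.63 in low B12), Nucks1 (7.81 in high B12 and 6.42 in low B12), Hmgb1 (4.09 in high B12 and 3.34 in low B12), Dek (5.87 in high B12 and 3.17 in low B12) and Anp32b (4.08 in high B12 and 2.81 in low B12), with Tubb5 (8.65 in high B12 and 2.95 in low B12), the nuclear envelope gene Lbr (3.04 in high B12 and 3.29 in low B12) and Calm3 (2.93 in high B12 and 2.97 in low B12). Lower were the interferon-induced membrane genes Ifitm6 (0.347 in high B12 and 0.430 in low B12) and Ifitm2 (0.428 in high B12 and 0.629 in low B12), Lrp1 (0.431 in high B12 and 0.394 in low B12), Selenop (0.367 in high B12 and 0.438 in low B12), Klra2 (0.420 in high B12 and 0.509 in low B12) and Junb (0.395 in high B12 and 0.556 in low B12). Type I interferon genes were lower in 30 of 33, 8 of them called, in the high B12 library, and in 18 of 33 with none called in the low B12 library. The difference between those counts was not tested. Replication histones summed to 13638 CPM in cycling cells against 685 CPM in the others in the high B12 library, and to 3106 against 566 CPM in the low B12 library.

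NK-like members were 5 in each library and held 8 to 10 of 10 NK markers. Gzma was in every one of them, with 247, 181, 136, 73 and 18 UMIs in the high B12 cells and 398, 176, 73, 61 and 7 in the low B12 cells. Ncr1, the receptor NKp46, had 16, 14, 11, 6 and 4 UMIs in the high B12 cells and 11, 9, 4, 4 and 0 in the low B12 cells. The highest Mki67 and Top2a sums of all members were NK-like, 51 UMIs in the high B12 library and 56 in the low B12 library. Summed Gzma stood at 9285 CPM in high B12 and 10618 CPM in low B12 in the cycling cells, close to 8974 CPM in high B12 and 7750 CPM in low B12 in the other NK-like cells. A single low B12 cell held 398 of these Gzma UMIs, and 2 of the 5 high B12 members were not above the percentile for other cell cycle genes. In the high B12 library 72 of 81 ribosomal protein genes were higher in cycling NK-like cells with 4 called, where 3.28% of all genes were called higher and 50.4% had a ratio above 1. In the low B12 library it was 76 of 81 with 25 called, where 4.13% of all genes were called higher and 47.4% had a ratio above 1.

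Single B-like, mixed and unsorted cells stood out for what they carried, and these were picked after their values were seen. A B-like cell of the high B12 library held 1278 Igha, 732 Jchain and 5641 Igkc UMIs, the products of an IgA plasma cell, and had all 6 plasma cell panel genes. It held 5 Mki67 UMIs, none of Top2a, Stmn1 or Birc5, and 17 UMIs over 10 of the 95 other cell cycle genes, which is not above the 99th percentile of cells of like depth without Mki67 and Top2a. A B-like cell of the low B12 library held 738 Ighg1 UMIs. The unsorted high B12 cell had all 5 basophil and mast cell markers, with 243 Mcpt8, 201 Prss34 and 24 Cpa3 UMIs, and 38 of the 95 other cell cycle genes. Basophils are granulocytes, and the limits on neutrophil genes do not remove them, so this member went against the name non-granulocyte. The unsorted low B12 cell, called a doublet, had 28 S100a9 and 8 Csf3r UMIs, both genes of neutrophils. A mixed low B12 cell held 56 C1qa and 55 C1qb UMIs, complement genes of macrophages.

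Genes of nucleotide synthesis and one-carbon metabolism were followed because Mtr (methionine synthase) and Mmut (methylmalonyl-CoA mutase) encode the B12-dependent enzymes. Over all members 21 of 25 list genes were higher in cycling than in other cells in the high B12 library, 12 of them called, and 24 of 25 in the low B12 library, 15 of them called. Over all measured genes 6.61% in high B12 and 8.65% in low B12 were called higher, and 49.9% in high B12 and 50.3% in low B12 had a ratio above 1. Enzymes of DNA precursor synthesis were among those called. Rrm2 stood at 156 CPM in cycling against 1.70 CPM in other cells in the high B12 library and 126 against 1.42 CPM in the low B12 library. Tyms, the thymidylate synthase, had 122 against 3.70 CPM in high B12 and 112 against 2.80 CPM in low B12. Mtr was in 6 of 41 members at 13.98 CPM, against 19.8 CPM in other cells, in the high B12 library, and in 21 of 72 at 27.3 CPM, against 23.3 CPM, in the low B12 library. Mmut was in 1 of 41 high B12 and 14 of 72 low B12 members. Cd320, the receptor for transcobalamin-bound B12, was seen in 0 of 41 in high B12, which at 3 cells of 41 allows up to 7.32% of cells with a UMI and does not limit the cells expressing it, and in 7 of 72 in low B12. Mtr, Mmut and Cd320 were too low to be compared between the libraries by the limit of 50 UMIs.

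Over all 113 members together, high B12 over low B12, 2.63% of 4717 genes were called higher and 4.32% lower, 43.4% had a ratio above 1, and these values mix lineages of unequal share. Replication histones were higher in 31 of 31 with 22 called, and G2 and M genes in 38 of 43 with 11 called. Heat shock genes were lower in 13 of 14 with 6 called, and MHC class II genes in 10 of 10 with 5 called. The inhibitors of cyclin-dependent kinases Cdkn2c (89.9 CPM in high B12 and 35.5 CPM in low B12, ratio 2.53, 1.59 to 4.06), Cdkn2d (136 CPM in high B12 and 64.8 CPM in low B12, ratio 2.09, 1.47 to 2.99) and Cdkn1a (71.9 CPM in high B12 and 31.4 CPM in low B12, ratio 2.29, 1.38 to 3.83) were called higher, and Cdkn1b was not (79.9 CPM in high B12 and 76.0 CPM in low B12). Per cell, the G2 and M list had a median of 7100 CPM in the high B12 library (531 to 30101) and 4544 CPM in the low B12 library (481 to 23665), and the S list 3995 CPM in high B12 and 2604 CPM in low B12. Granulocyte RNA moved with the library as well, since Ngp, a neutrophil granule gene, was seen in 16 of 41 high B12 and 2 of 72 low B12 members, with 6072 CPM in high B12 and 2234 CPM in low B12 in empty droplets. Its part in these differences was not tested.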

How the data were processed

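What was measured is RNA of CD45.2+CD11b+ spleen cells, in 1 library labelled high B12 and 1 labelled low B12. The deposited files are raw counts of UMIs for each gene in each barcode, with empty droplets kept. Their headers name Cell Ranger 4 as the software, whereas version 2.1.1 stands in the submitters' processing notes. The genome build behind the counts is not given in the sources used here. The libraries hold 46994991 (high B12) and 48884220 (low B12) UMIs, and 5 barcodes with 500 or more UMIs are shared between them.

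Cells had at least 500 UMIs, 200 genes and at most 10% mitochondrial UMIs. Counts were summed over the cells of a lineage and divided by their total (CPM). Ratios have exact conditional binomial intervals, shares exact binomial (Clopper-Pearson) ones and differences of shares Newcombe ones, at 95% and for counting error only. Log2 ratios had 0.5 UMI added to each sum. Scrublet in scanpy 1.11.5 called doublets, which were kept because the rule keeps them. Empty droplets were barcodes with at most 50 UMIs. Python 3.11.15, scipy 1.17.1 and numpy 2.4.6 were used.

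The members and gene lists were chosen with earlier results of these data known, and the sorting rule (another lineage at over 0.667 of the best share makes a cell mixed) was set after values were seen. Genes were named by size: up to 10 each way past the fold, at 200 CPM or more in a library, with no cell holding over 25% of the UMIs, leaving out mitochondrial, ribosomal, haemoglobin, immunoglobulin segment and predicted genes; for cycling against other cells, genes called the same way in both libraries, ranked by the smaller ratio. Always named were the rule's genes and members of the lists described. The plan asked for 20 cycling cells of a lineage per library, which none reached, so 10 were used. Alternatives covered the limits of the rule, doublets, thinning, lineage genes, scaling and weighting.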

Additional observations from a re-analysis of the deposited data

How the results depend on the processing

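Of 198 recomputed values, 169 stayed within the interval of the value reported (counts of genes within 1.5 times). Another 26 left it, and 3 changed sign against an interval that excluded 0. A list median has no interval of its own here. The width of the interval of the list's summed ratio was used for it, centred on the median. In all 19 changed sign, 13 of them differences in share whose interval spanned 0 and 6 list medians, which include dendritic-like G2 and M genes. After thinning, the cycling share in high B12 minus that in low B12 was 0.743 points in dendritic-like and −0.101 points in monocyte-like cells, beside −1.06 and 0.568 as reported. The cause was not tested. No paired analysis was possible because each label has 1 library. List medians are log2 ratios, high B12 over low B12. With at least 5 Mki67 and Top2a UMIs per cell, dendritic-like medians were −0.0051 for S phase, 0.11 for G2 and M, −0.87 for heat shock, 0.12 for ribosomal proteins and 0.27 for oxidative phosphorylation. In monocyte-like cells 58 genes were then past the fold, beside 88, with −0.23 for heat shock and −0.018 for ribosomal proteins. With lineages read from the rule's genes alone, the dendritic-like values in the same order were −0.73, 0.32, −0.37, 0.13 and 0.27, and 544 genes, beside 889, were past the fold for cycling over other cells of the low B12 library. Monocyte-like medians were then 0.45 for S phase, 2.22 for replication histones, −0.074 for heat shock and −0.096 for ribosomal proteins. Scaling by the median ratio gave 0.27 (dendritic-like) and 0.062 (monocyte-like) for ribosomal proteins. Weighting every cell alike gave 0.37 for dendritic-like histones, −0.24 for heat shock, 0.20 for ribosomal proteins and 0.073 for oxidative phosphorylation, and in monocyte-like cells 0.65 for G2 and M and −0.0086 for ribosomal proteins. At 20 UMIs per gene, 143 dendritic-like genes, beside 71, and 162 monocyte-like genes, beside 88, were past the fold. Thinned before sorting, a setting chosen after seeing the data, the dendritic-like cycling share differed by 1.40 points, beside −1.06. With 1 library per label, depth limits each value only through counting, and variation between mice could not be measured.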
